A study of Mus musculus with 6 samples.

Results

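Interleukin receptors and the genes of the JAK-STAT-SOCS pathway were followed in 4T1 cells, a mouse mammary carcinoma line, grown in collagen I gels with and without targeting of FGFR2, a kinase receptor of fibroblast growth factors. The set was chosen by gene symbol. It holds every row of the count table named as a numbered interleukin receptor, Jak1 to Jak3, Tyk2, the STAT factors and Socs1 to Socs7, together with Cish, Il6st, Lifr, Osmr and the cytokine genes Lif, Il11, Il15, Il18, Il23a and Il34. These rules gave 69 of the 31017 genes in the table. The FGFR2 KO group was 3 libraries of cells nucleofected with Cas9 and guide RNAs against FGFR2, and the control group was 3 libraries of cells nucleofected with Cas9 and control guides. All 6 libraries came from the same line, were grown in serum-containing medium in collagen I at either of 2 concentrations (which of them is not stated for any library), and were released from the gels with collagenase. The labels give no guide position, no culture time and no statement on whether the edited cells were a pool or a clone.

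Cytokine receptors of this kind have no kinase of their own. A ligand brings receptor chains together, Janus kinases bound to their tails phosphorylate the chains, and STAT factors dock there, are phosphorylated and move to the nucleus. SOCS proteins and Cish are induced by STATs and shut the pathway down. Receptors of the IL-1 and IL-17 families signal through adaptors to NF-kB instead, and IL-34 acts on a receptor tyrosine kinase. In mammary epithelium STAT5 is known for its part in lactation and STAT3 for its part in involution, and the gp130 cytokines are known as activators of STAT3 in breast tumours.

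The libraries held between 15531790 and 20447719 counts. Fgfr2 transcript did not differ past the test, with 92.6 ± 10.4 CPM, counts scaled by library total, in FGFR2 KO libraries and 99.7 ± 5.82 CPM in control libraries (SD, n = 3 each), and counts over the whole gene do not check the edit. Epithelial markers were abundant in all libraries, with 3264 to 3361 CPM in FGFR2 KO libraries and 4022 to 4128 CPM in control libraries summed over 5 genes. Of 19 leukocyte markers, 9 were at 0 counts in every library, among them the lymphocyte markers Cd3e and Nkg7. The pan-leukocyte marker Ptprc had 2 counts in all FGFR2 KO libraries and 1 in all control libraries. The summed level of the leukocyte markers was 7.01 to 9.23 CPM in FGFR2 KO libraries and 15.4 to 17.3 CPM in control libraries, most of it from Cd68, a lysosomal protein of macrophages that other cells make as well. In bulk RNA a change in the number of cells that express a gene and a change in RNA per cell cannot be told apart.

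Of the 69 genes, 45 had enough counts to be tested and 24 had not. A gene was called changed at a Benjamini-Hochberg adjusted p below 0.05 in edgeR's quasi-likelihood test, adjusted over all 12158 tested genes. Of the 45 tested genes, 14 were higher and 17 lower in FGFR2 KO libraries, and 14 did not pass. That is 68.9% called, against 54.6% of all tested genes, 27.1% higher and 27.5% lower. The FGFR2 KO and control libraries did not overlap for 34 of the 45 genes, against 59.5% of all tested genes. FGFR2 KO libraries lay above in 15 (29.5% of all tested genes) and below in 19 (30%). At least 2-fold changes past the test were found for 4 genes that rose (Lifr, Il1rl1, Osmr and Il15ra) and 3 that fell (Jak3, Il11 and Il23a), against 2.88% and 3.87% of all tested genes, 6.75% together. The median log2 fold change of the 45 genes was -0.06, beside -0.01 over all tested genes. It was 0.046 without FGFR2 KO replicate 2 and -0.0014 without control replicate 2. Rises and falls were thus near balance. Of the 45 genes 1, Il1rl1, reached the minimum of the filter on low counts in all FGFR2 KO libraries but not in all control libraries. It was tested only through the group where it was high, so its call supports nothing. Without it 13 of 44 genes were higher and 17 lower (68.2% called), and 3 were at least 2-fold higher.

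**Figure D1:**
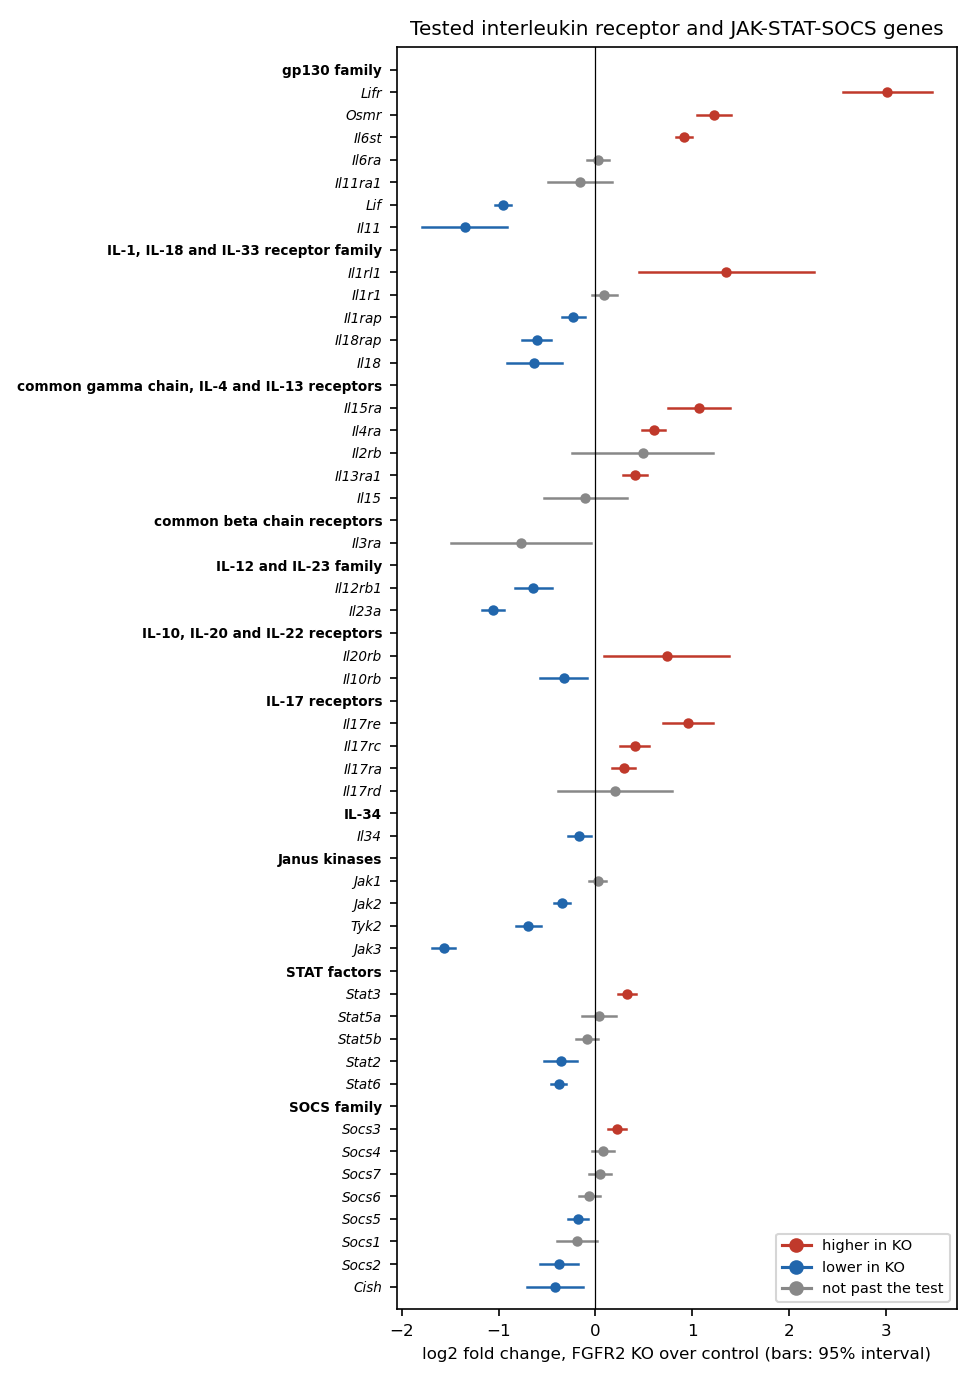
Log2 fold change (FGFR2 KO over control) of 44 of the 45 tested genes by subfamily, with bars for the 95% interval; red genes were higher in KO, blue genes lower, and grey genes did not pass edgeR's test. Lifr stands farthest to the right at 3.01 and Jak3 farthest to the left at -1.57, and the IL-17 receptors lie on the right while no Janus kinase does so past the test.

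In the gp130 family 3 receptor chains rose and 2 cytokines fell, while 2 ligand-binding chains did not pass the test. That is 71.4% of 7 tested genes called, against 54.6% of all tested genes. Il6st, which encodes gp130, the signalling chain shared by IL-6, IL-11, LIF and oncostatin M, lies on chromosome 13 (112464070 to 112510086, mm10). It stood at 286, 256 and 278 CPM in FGFR2 KO libraries, against 143, 143 and 149 CPM in control libraries. Every FGFR2 KO library lay above every control library, and the log2 fold change was 0.92 (SE 0.041, adjusted p = 1.05e-20 by edgeR). Osmr, the oncostatin M receptor chain (chromosome 15, 6813577 to 6874969), stood at 30.8, 32.1 and 27.4 CPM in FGFR2 KO libraries, against 12.4, 13 and 13.2 CPM in control libraries. Its log2 fold change was 1.22 (SE 0.087, adjusted p = 1.06e-14 by edgeR), with no overlap.

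Lifr, the chain that binds LIF and pairs with gp130 (chromosome 15, 7090614 to 7197489), had the largest fold change of the set. It had 146, 120 and 191 counts in FGFR2 KO libraries, against 19, 20 and 13 counts in control libraries. In CPM these were 7.81, 6.13 and 9.43 in FGFR2 KO libraries and 1.04, 0.985 and 0.839 in control libraries. Lifr was therefore a low transcript in both groups, and 8.08-fold higher in FGFR2 KO libraries (log2 fold change 3.01 with SE 0.23, adjusted p = 4.24e-14 by edgeR). Per kilobase of exon its level was 0.723 ± 0.153 CPM in FGFR2 KO libraries, far under that of Il6st at 24.6 ± 1.39 CPM per kb in the same libraries (SD, n = 3 each). Osmr and Lifr are neighbours in the genome, 216 kb apart on chromosome 15.

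The ligand-binding alpha chains of the family did not follow. Il6ra, which binds IL-6, averaged 65.0 ± 3.39 CPM in FGFR2 KO libraries and 63.8 ± 2.59 CPM in control libraries (SD, n = 3 each), with a 95% interval of the log2 fold change from -0.08 to 0.14. Il11ra1, which binds IL-11, averaged 4.82 ± 0.348 CPM in FGFR2 KO libraries and 5.35 ± 0.661 CPM in control libraries, with an interval from -0.49 to 0.17. Neither passed the test. Il11ra2, a near copy of Il11ra1, was at 0 counts in all libraries, and how the counting treated reads that align to both is not given in the sources used here. Il27ra, a receptor for IL-27, had 34 counts in all FGFR2 KO libraries and 22 in all control libraries. Il31ra, the partner of Osmr in the IL-31 receptor, had 1 count in FGFR2 KO libraries and 3 in control libraries.

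Lif, the most abundant gene of the set per exon length over all 6 libraries, encodes the cytokine LIF (chromosome 11, 4257557 to 4272514). It stood at 148, 135 and 141 CPM in FGFR2 KO libraries, against 268, 276 and 280 CPM in control libraries. The groups did not overlap, and the level in FGFR2 KO libraries was lower by a log2 fold change of -0.96 (SE 0.040, adjusted p = 8.18e-22 by edgeR). Il11, the gene of the related cytokine IL-11, stood at 2.09, 1.74 and 1.68 CPM in FGFR2 KO libraries, against 5.18, 4.68 and 4.13 CPM in control libraries (log2 fold change -1.35 with SE 0.22, adjusted p = 1.84e-06 by edgeR). Of the other 10 cytokines of this family, 5 could be tested. Il6 had 70, 56 and 85 counts in FGFR2 KO libraries, against 1, 7 and 0 counts in control libraries. It passed the filter on low counts only through the FGFR2 KO libraries, so its call as higher is a description. Of the other 4 none passed edgeR's test, and 1, Clcf1, had an unadjusted p below 0.05. Clcf1, the most abundant of them, averaged 198 ± 15 CPM in FGFR2 KO libraries and 185 ± 7.85 CPM in control libraries and did not pass (edgeR adjusted p = 0.0523). Without FGFR2 KO replicate 1, FGFR2 KO replicate 2 or control replicate 1, 2 of the 5 were called higher. Osm, the gene of oncostatin M itself, was at 0 counts in all libraries.

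**Figure D2:**
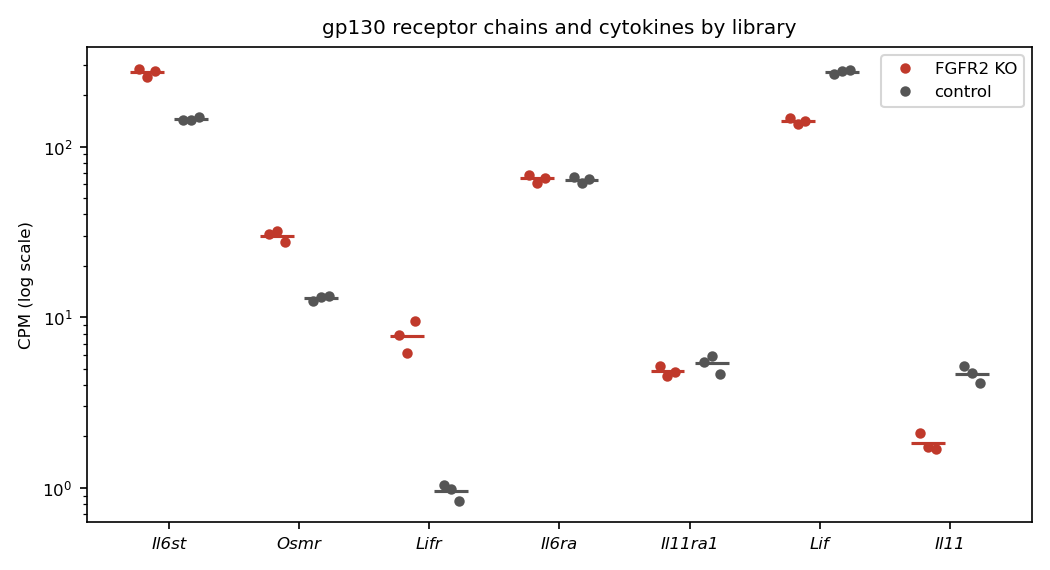
CPM (log axis) of the 5 tested gp130-family receptor chains and the cytokines Lif and Il11 in each library, FGFR2 KO in red to the left of control in grey, with bars for group means. Il6st, Osmr and Lifr are higher in all 3 KO libraries, Lif and Il11 are lower in all 3, and Il6ra and Il11ra1 overlap.

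Over the 5 tested receptor chains the summed level per exon length was 36.4 ± 1.86 CPM per kb in FGFR2 KO libraries and 22.8 ± 0.363 CPM per kb in control libraries (SD, n = 3 each). Il6st made up 67.6 ± 0.443% of that sum in FGFR2 KO libraries and 57.3 ± 0.816% in control libraries. The share of Il6ra was 20.6 ± 0.0383% in FGFR2 KO libraries and 32.4 ± 0.932% in control libraries. Il6ra itself did not pass the test, so its smaller share went with a larger sum. Lifr held 1.98 ± 0.367% in FGFR2 KO libraries and 0.388 ± 0.0449% in control libraries. None of these shares overlapped between the groups.

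The promoters of Il6st and Osmr, both of which were higher in every FGFR2 KO library, are shown with those of the feedback genes described further on. Each runs from 250 bases before to 50 bases after a RefSeq gene start (GRCm38.p6), on the gene's strand. In the GENCODE annotation used for the gene positions, Osmr, Socs3 and Cish start farther upstream, at 6874969, 117970047 and 107296026. Their windows lie inside the gene by that annotation, so matches and distances hold for the RefSeq start alone. They were searched on both strands for TTCNNNGAA, the palindromic form that most STAT dimers bind, and for the wider form known for STAT6, in which 4 bases of any kind stand between TTC and GAA. Capitals mark matches. Neither form occurs in the windows of Il6st (chr13:112463820-112464119, plus strand) or Osmr (chr15:6874264-6874563, minus strand), which says only that these letters are not in these windows.
Il6st: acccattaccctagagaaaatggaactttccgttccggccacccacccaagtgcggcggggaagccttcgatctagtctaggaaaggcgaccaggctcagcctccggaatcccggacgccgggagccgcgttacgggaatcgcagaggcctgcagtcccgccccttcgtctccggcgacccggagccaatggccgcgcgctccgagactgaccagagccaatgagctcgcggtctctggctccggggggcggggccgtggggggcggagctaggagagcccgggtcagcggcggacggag
Osmr: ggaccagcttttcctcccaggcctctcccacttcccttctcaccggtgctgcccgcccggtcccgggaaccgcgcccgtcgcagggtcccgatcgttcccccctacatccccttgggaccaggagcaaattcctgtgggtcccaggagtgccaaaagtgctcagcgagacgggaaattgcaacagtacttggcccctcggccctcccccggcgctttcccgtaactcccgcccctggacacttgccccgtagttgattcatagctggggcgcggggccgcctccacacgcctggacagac

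Of the 4 Janus kinases 3 fell and none rose, against 27.5% lower and 27.1% higher of all tested genes. With 4 genes this count is a description. Jak3, which is known to bind the common gamma chain of lymphoid interleukin receptors (chromosome 8, 71676296 to 71690575), had the largest fall of the set. It stood at 26.7, 28.0 and 29.4 CPM in FGFR2 KO libraries, against 86.6, 81.5 and 81.2 CPM in control libraries. The groups lay far apart, with a log2 fold change of -1.57 (SE 0.058, adjusted p = 2.15e-23 by edgeR), which is 2.96-fold lower. Exons of Jak3 and of Insl3 share 404 bases on the same strand, 7.55% of the Jak3 exon length, and Insl3 itself had 12, 14 and 16 counts in FGFR2 KO libraries and 36, 33 and 26 in control libraries. Reads of that stretch cannot be given to either gene.

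Jak3 was present although its receptor partner was scarcely detected. Il2rg, the common gamma chain, had 27 counts in all FGFR2 KO libraries and 24 in all control libraries, while Jak3 had 1643 and 4501. Exons of Il2rg share 728 bases on the same strand, 30.5% of its exon length, with the gene model Gm20489, which had 0 counts. Reads of that stretch may be missing from the Il2rg counts. Il2ra, Il7r and Il21r, which encode partners of the common gamma chain, were at 0 counts in all libraries, and Il9r had 0 counts in FGFR2 KO libraries and 1 in control libraries. The lymphocyte markers named above were at 0 as well, in both groups. The summed leukocyte markers, lower in FGFR2 KO libraries as given above, moved with Jak3, Il18rap and Il12rb1. Their part in these results was not tested.

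Tyk2, the kinase of interferon and IL-12 receptors, stood at 31.2, 27.9 and 32.2 CPM in FGFR2 KO libraries, against 50.7, 49.3 and 47.5 CPM in control libraries (log2 fold change -0.69 with SE 0.065, adjusted p = 1.84e-11 by edgeR). Jak2, which serves growth hormone, prolactin and gp130 receptors, stood at 165, 163 and 155 CPM in FGFR2 KO libraries, against 205, 202 and 207 CPM in control libraries (log2 fold change -0.35 with SE 0.039, adjusted p = 1.60e-09 by edgeR). Both fell without overlap. Jak1, the kinase that gp130 depends on most, averaged 134 ± 5.50 CPM in FGFR2 KO libraries and 132 ± 0.0806 CPM in control libraries (SD, n = 3 each). Its 95% interval ran from -0.06 to 0.11 on the log2 scale, and it did not pass (edgeR adjusted p = 0.662).

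Per exon length Jak2 was the most abundant kinase in both groups, with 53.1 ± 0.498% of the summed level of the 4 kinases in FGFR2 KO libraries and 49.9 ± 0.582% in control libraries (SD, n = 3 each). Jak3 made up 8.71 ± 0.610% of it in FGFR2 KO libraries and 19.0 ± 0.511% in control libraries. Jak1 made up 30.8 ± 0.604% in FGFR2 KO libraries and 22.4 ± 0.219% in control libraries. The sum itself was 60.2 ± 1.33 CPM per kb in FGFR2 KO libraries and 81.6 ± 0.851 CPM per kb in control libraries, so the larger share of Jak1 went with a smaller sum.

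**Figure D3:**
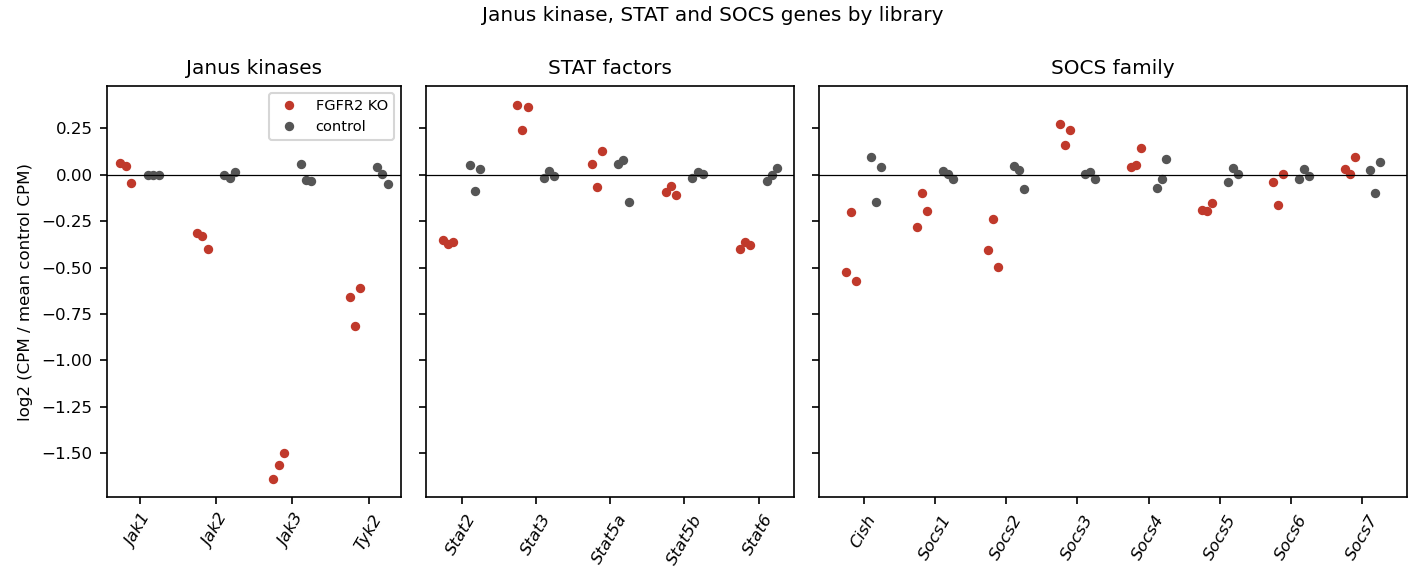
Level of the Janus kinase, STAT and SOCS genes described here in each library as the log2 ratio of its CPM to the mean control CPM, FGFR2 KO in red to the left of control in grey. The Jak3 points of the KO libraries lie lowest, Stat3 and Socs3 of the KO libraries lie above all their controls, and Jak1, Stat5a, Socs4, Socs6 and Socs7 overlap.

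Among the STAT factors Stat3 rose, while Stat6 and Stat2 fell. Stat3, the factor downstream of gp130, stood at 115, 105 and 114 CPM in FGFR2 KO libraries, against 87.2, 89.7 and 88.0 CPM in control libraries (log2 fold change 0.33 with SE 0.046, adjusted p = 1.58e-07 by edgeR). It rose without overlap, by less than 1.5-fold.

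Stat6, the factor of IL-4 and IL-13 signalling and the most abundant STAT per exon length, fell. It stood at 161, 165 and 163 CPM in FGFR2 KO libraries, against 208, 212 and 218 CPM in control libraries (log2 fold change -0.38 with SE 0.038, adjusted p = 1.22e-10 by edgeR). Stat2, a factor of type I interferon responses, stood at 18.1, 17.8 and 18 CPM in FGFR2 KO libraries, against 23.9, 21.8 and 23.6 CPM in control libraries (log2 fold change -0.36 with SE 0.084, adjusted p = 4.24e-04 by edgeR). Every FGFR2 KO library lay below every control library for Stat6 and Stat2.

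The prolactin-responsive pair did not pass. Stat5a averaged 21.7 ± 1.49 CPM in FGFR2 KO libraries and 21 ± 1.80 CPM in control libraries, with a 95% interval of the log2 fold change from -0.14 to 0.21 (SD, n = 3 each). Stat5b averaged 45.1 ± 0.757 CPM in FGFR2 KO libraries and 48.0 ± 0.601 CPM in control libraries, with an interval from -0.20 to 0.03. Stat5b, Stat5a and Stat3 lie side by side on chromosome 11, and the exons of Stat5a and Stat3 share 72 bases on opposite strands. Stat4, the factor of IL-12 signalling, had 1 count in all FGFR2 KO libraries and 1 in all control libraries. In the summed STAT level per exon length, Stat3 held 17.6 ± 0.807% in FGFR2 KO libraries and 12.2 ± 0.149% in control libraries, and Stat6 held 55.9 ± 0.904% in FGFR2 KO libraries and 63.8 ± 0.797% in control libraries.

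The SOCS family, the feedback inhibitors, moved by small amounts. Of its 8 genes 50% were called, against 54.6% of all tested genes. Socs3, which binds gp130 and the kinases on it, stood at 128, 118 and 125 CPM in FGFR2 KO libraries, against 106, 107 and 104 CPM in control libraries (log2 fold change 0.22 with SE 0.044, adjusted p = 4.49e-05 by edgeR). It was the only one of 8 members that rose, and per exon length the most abundant, with 52.3 ± 1.11% of the family's summed level in FGFR2 KO libraries and 47 ± 0.695% in control libraries (SD, n = 3 each). Socs3 is also an early response gene. The 12 tested genes known to respond to tissue dissociation all passed the test, 6 higher and 6 lower, against 54.6% of all tested genes. Among them Egr1 fell by 1.31, Ier2 by 0.51 and Zfp36 by 0.59 on the log2 scale and Atf3 rose by 0.84. The part of dissociation in the Socs3 value was not tested.

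The STAT5-induced inhibitors Cish and Socs2 fell. Cish stood at 5.67, 7.10 and 5.48 CPM in FGFR2 KO libraries, against 8.72, 7.38 and 8.39 CPM in control libraries (log2 fold change -0.42 with SE 0.14, adjusted p = 0.0127 by edgeR). Its groups came close, and the call was lost without FGFR2 KO replicate 3 (edgeR adjusted p = 0.0597) and without control replicate 1 (0.0641). Socs2 stood at 13.5, 15.2 and 12.7 CPM in FGFR2 KO libraries, against 18.5, 18.2 and 17 CPM in control libraries (log2 fold change -0.38 with SE 0.097, adjusted p = 0.00114 by edgeR). Socs5, known for its action on the EGF receptor, stood at 65.3, 65.0 and 67.0 CPM in FGFR2 KO libraries, against 72.4, 76.4 and 74.6 CPM in control libraries (log2 fold change -0.18 with SE 0.050, adjusted p = 0.00255 by edgeR). Socs5 and Socs2 fell without overlap between the groups.

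The remaining SOCS genes did not pass. Socs1, which blocks Janus kinases directly, averaged 12.5 ± 0.782 CPM in FGFR2 KO libraries and 14.3 ± 0.216 CPM in control libraries (SD, n = 3 each; 95% interval of the log2 fold change -0.40 to 0.02). Socs4, Socs6 and Socs7 had log2 fold changes of 0.08, -0.06 and 0.05, with intervals of -0.03 to 0.20, -0.17 to 0.04 and -0.07 to 0.16.

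The windows of Socs3 (chr11:117969317-117969616, minus strand) and Cish (chr9:107296409-107296708, plus strand) each hold the STAT form TTCNNNGAA, at 154 bases before the start in Socs3 and at bases 1 and 12 after it in Cish, where 2 matches lie next to each other. They are shown because Cish and Socs3 moved in opposite directions.
Socs3: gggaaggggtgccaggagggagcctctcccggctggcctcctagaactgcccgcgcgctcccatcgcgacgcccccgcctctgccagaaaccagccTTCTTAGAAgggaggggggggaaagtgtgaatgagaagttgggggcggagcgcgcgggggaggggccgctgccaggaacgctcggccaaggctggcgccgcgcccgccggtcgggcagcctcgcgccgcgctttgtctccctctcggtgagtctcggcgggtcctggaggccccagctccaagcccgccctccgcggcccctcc
Cish: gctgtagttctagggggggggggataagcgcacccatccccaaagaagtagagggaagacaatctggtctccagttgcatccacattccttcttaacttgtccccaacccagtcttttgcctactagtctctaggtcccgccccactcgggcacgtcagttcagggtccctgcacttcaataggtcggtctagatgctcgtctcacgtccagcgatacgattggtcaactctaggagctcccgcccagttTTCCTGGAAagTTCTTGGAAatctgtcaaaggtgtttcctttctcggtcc
Of the 54 genes of the set with a RefSeq promoter, 7 held TTCNNNGAA in at least 1 window (13%), against 9.55% of 27025 genes. The wider form was held by 8 of the 54 (14.8%), against 8.01% of genes. A match describes letters in the window and not a bound site.

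The receptors for IL-4, IL-13 and IL-15 rose. Il4ra, the chain that binds IL-4 and signals for IL-13, stood at 53.8, 56.2 and 56.2 CPM in FGFR2 KO libraries, against 34.6, 36.5 and 38.6 CPM in control libraries (log2 fold change 0.60 with SE 0.060, adjusted p = 7.06e-11 by edgeR). Il13ra1, its partner in the receptor of epithelial cells, averaged 49.9 ± 1.69 CPM in FGFR2 KO libraries and 37.5 ± 1.87 CPM in control libraries (SD, n = 3 each; log2 fold change 0.41 with SE 0.061, adjusted p = 4.32e-07 by edgeR). Both chains of that receptor were thus higher, while Stat6, the factor it activates, was lower. The decoy receptor gene Il13ra2 had 3 counts in all FGFR2 KO libraries and 6 in all control libraries, and the ligand genes Il4 and Il13 had 0 counts in FGFR2 KO libraries and at most 1 in control libraries.

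Il15ra, the chain that binds IL-15 and presents it to neighbouring cells, stood at 7.49, 9.04 and 8.35 CPM in FGFR2 KO libraries, against 4.41, 3.15 and 4.39 CPM in control libraries (log2 fold change 1.07 with SE 0.16, adjusted p = 5.23e-07 by edgeR). No library of the groups overlapped. Il15, its ligand, averaged 3.26 ± 0.640 CPM in FGFR2 KO libraries and 3.51 ± 0.589 CPM in control libraries (SD, n = 3 each; 95% interval of the log2 fold change -0.53 to 0.32). Il2rb, the signalling chain for IL-2 and IL-15, averaged 1.26 ± 0.426 CPM in FGFR2 KO libraries and 0.899 ± 0.149 CPM in control libraries (interval -0.24 to 1.21). Neither passed. The values rested on 73 counts of Il2rb in FGFR2 KO libraries and 48 in control libraries. Il3ra, the alpha chain of the IL-3 receptor, had 50 counts in FGFR2 KO libraries and 80 in control libraries and did not pass (log2 fold change -0.77 with SE 0.36, adjusted p = 0.0661 by edgeR). Without control replicate 3 it did (edgeR adjusted p = 0.0386). Il5ra was at 0 counts.

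The IL-17 receptor genes Il17re, Il17ra and Il17rc were higher as well. Il17re, known as the chain that binds IL-17C on epithelial cells, stood at 10.4, 11.7 and 12.4 CPM in FGFR2 KO libraries, against 6.21, 5.86 and 5.74 CPM in control libraries (log2 fold change 0.96 with SE 0.13, adjusted p = 6.69e-08 by edgeR). Il17ra, the chain shared by the family, averaged 54.2 ± 1.52 CPM in FGFR2 KO libraries and 44.1 ± 2.03 CPM in control libraries (SD, n = 3 each; log2 fold change 0.29 with SE 0.058, adjusted p = 4.70e-05 by edgeR). Il17rc, the partner of Il17ra for IL-17A and IL-17F, averaged 32.5 ± 0.993 CPM in FGFR2 KO libraries and 24.5 ± 2.05 CPM in control libraries (log2 fold change 0.41 with SE 0.075, adjusted p = 1.72e-05 by edgeR). Of the 4 tested genes 3 rose, against 27.1% of all tested genes. The KO libraries lay above the control libraries for all 4, against 29.5% of all tested genes. With 4 genes these counts are a description. Il17rd, better known as Sef, an inhibitor of FGF signalling, was the exception in the test, with 1.64 ± 0.0887 CPM in FGFR2 KO libraries and 1.43 ± 0.0536 CPM in control libraries (interval of the log2 fold change -0.39 to 0.80). Il17rb, a receptor for IL-25, had 8 counts in all FGFR2 KO libraries and 20 in all control libraries and was not tested. Il17re and Il17rc are adjacent on chromosome 6, 0.668 kb apart, and the ligand gene Il17c had 8 counts in all FGFR2 KO libraries and 9 in all control libraries.

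In the IL-1 receptor family Il1rap, Il18 and Il18rap fell. Il1r1, the signalling receptor for IL-1, averaged 36.4 ± 1.66 CPM in FGFR2 KO libraries and 34.1 ± 0.344 CPM in control libraries (SD, n = 3 each) and did not pass (95% interval of the log2 fold change -0.04 to 0.23). Il1rap, the accessory chain that Il1r1 and the IL-33 receptor share, averaged 41.5 ± 0.644 CPM in FGFR2 KO libraries and 48.5 ± 2.75 CPM in control libraries (log2 fold change -0.23 with SE 0.060, adjusted p = 0.00160 by edgeR). Il1rl1, the IL-33 receptor ST2, had 16, 21 and 22 counts in FGFR2 KO libraries, against 5, 6 and 10 counts in control libraries. These were 0.856, 1.07 and 1.09 CPM in FGFR2 KO libraries and 0.273, 0.295 and 0.645 CPM in control libraries. Since Il1rl1 passed the filter on low counts only through the FGFR2 KO libraries, these values are a description. Its call was also lost without control replicate 1 and without control replicate 2.

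Il18 and Il18rap fell. Il18, a cytokine stored as a precursor in epithelial cells, stood at 5.03, 5.36 and 5.83 CPM in FGFR2 KO libraries, against 8.28, 8.02 and 8.91 CPM in control libraries (log2 fold change -0.63 with SE 0.14, adjusted p = 2.50e-04 by edgeR). Il18rap, the accessory chain of the IL-18 receptor, stood at 21.9, 22.6 and 20.8 CPM in FGFR2 KO libraries, against 34.2, 30.8 and 34.7 CPM in control libraries (log2 fold change -0.61 with SE 0.076, adjusted p = 1.37e-08 by edgeR). Its ligand-binding partner Il18r1, which lies 14.5 kb upstream on chromosome 1, had 2 counts in all FGFR2 KO libraries and 0 in all control libraries. Il18rap was therefore a transcript of 1274 counts in FGFR2 KO libraries and 1791 in control libraries without a comparable level of its partner.

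Il1rn and Il1r2, the inhibitors of this family within the set, were near the detection limit. Sigirr, an inhibitory receptor outside the set, was not, with 38.3 ± 1.64 CPM in FGFR2 KO libraries and 77.4 ± 3.64 CPM in control libraries (SD, n = 3 each). Il1rn, the IL-1 receptor antagonist, had 3, 3 and 6 counts in FGFR2 KO libraries and 0 in all control libraries. Over a floor of 3 counts for the control group this is 3.70-fold higher. That value rests on 12 counts, leaves out their own counting error and carries no test. The decoy receptor gene Il1r2 had 3 counts in FGFR2 KO libraries and 0 in control libraries. Il1rl2, the IL-36 receptor, had 0 counts in FGFR2 KO libraries and 2 in control libraries, and Il1rapl1 and Il1rapl2, which are known from neurons, were at 0.

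Genes of the IL-12 and IL-23 family were lower. Il23a, which encodes the subunit particular to IL-23, stood at 36.9, 41.3 and 39.7 CPM in FGFR2 KO libraries, against 80.1, 86.2 and 79.1 CPM in control libraries (log2 fold change -1.06 with SE 0.056, adjusted p = 1.84e-18 by edgeR). Il12b, the other subunit of the cytokine, was at 0 counts in all libraries. Il12rb1, the receptor chain shared by IL-12 and IL-23, stood at 12.2, 14.4 and 13.6 CPM in FGFR2 KO libraries, against 21.1, 21.2 and 20.3 CPM in control libraries (log2 fold change -0.64 with SE 0.093, adjusted p = 3.06e-07 by edgeR). For Il23a and Il12rb1 the groups were well separated. Their partner chains were scarcely counted. Il23r had 0 counts in FGFR2 KO libraries and 1 in control libraries, and Il12rb2 had 1 count in FGFR2 KO libraries and 0 in control libraries. Exons of Il12rb2 share 1519 bases, 40% of its exon length, with Serbp1 on the opposite strand. Serbp1 had 79960 counts over all libraries, and how reads of that stretch were counted is not known.

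Among receptors of the IL-10 family, Il10rb, the accessory chain for IL-10, IL-22 and the lambda interferons, averaged 8.43 ± 0.568 CPM in FGFR2 KO libraries and 10.6 ± 0.558 CPM in control libraries (SD, n = 3 each; log2 fold change -0.33 with SE 0.12, adjusted p = 0.0210 by edgeR). This call was lost without FGFR2 KO replicate 2 (edgeR adjusted p = 0.0843) and without control replicate 3 (0.0791). Il20rb, the chain shared by the receptors of IL-20 and IL-24, stood at 2.51, 1.94 and 1.88 CPM in FGFR2 KO libraries, against 2.02, 0.689 and 1.10 CPM in control libraries. The groups overlapped, and its edgeR adjusted p of 0.0477 lay at the threshold (log2 fold change 0.74, SE 0.32). Il20rb lost its call with DESeq2 (adjusted p = 0.0901) and with upper quartile scaling (edgeR adjusted p = 0.0568). It also lost it without FGFR2 KO replicate 1 (edgeR adjusted p = 0.161), FGFR2 KO replicate 2 (0.0579), control replicate 2 (0.322) or control replicate 3 (0.133). The exons of Il10rb share 569 bases with those of the gene model Gm21970, which had 0 counts. Il10ra, Il20ra and Il22ra2 were at 0 counts, and Il22ra1 had 16 counts in FGFR2 KO libraries and 10 in control libraries.

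Il34, a ligand of the macrophage growth factor receptor Csf1r, averaged 43.6 ± 2.42 CPM in FGFR2 KO libraries and 49.0 ± 1.99 CPM in control libraries (SD, n = 3 each; log2 fold change -0.17 with SE 0.060, adjusted p = 0.0192 by edgeR). The call was lost without FGFR2 KO replicate 1 (edgeR adjusted p = 0.0880), FGFR2 KO replicate 2 (0.0587) or control replicate 3 (0.0926).

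**Figure D4:**
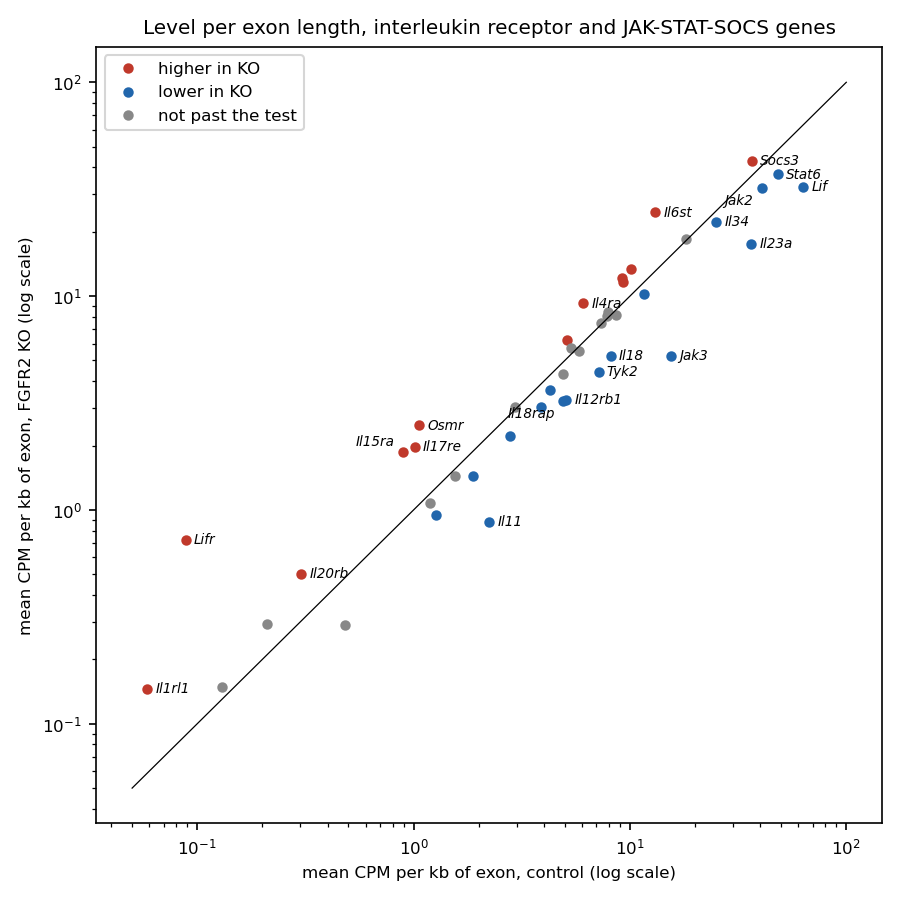
Mean level per exon length of 44 of the 45 tested genes, FGFR2 KO on the vertical and control on the horizontal axis (CPM per kb, both log axes), with the line of equal levels; red genes were higher, blue genes lower, and grey genes did not pass the test. Lif, Stat6, Socs3 and Jak2 are at the upper end, and Lifr and Il1rl1 lie above the line at the lower end.

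Levels of different genes were compared per kilobase of merged exon length. Socs3 led in FGFR2 KO libraries, with 42.8 ± 1.72 CPM per kb, against 36.6 ± 0.497 in control libraries (SD, n = 3 each). Lif led in control libraries, with 32.5 ± 1.41 CPM per kb in FGFR2 KO libraries and 63.1 ± 1.37 in control libraries. Stat6 had 37.1 ± 0.438 CPM per kb in FGFR2 KO libraries and 48.3 ± 1.12 in control libraries. Lif and Stat6 thus fell below Socs3 in FGFR2 KO libraries, where both stood above it in control libraries. Jak2 had 32.0 ± 0.984 in FGFR2 KO libraries and 40.7 ± 0.452 in control libraries. In FGFR2 KO libraries Lif and Jak2 did not differ beyond their spread. The lowest tested genes over all libraries were Il1rl1, Il17rd and Il2rb.

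Against a minimum fold change of 1.5 in place of 0, 9 of the 31 calls remained, those of Lifr, Osmr, Il6st, Lif, Il11, Il15ra, Il17re, Il23a and Jak3. Of all tested genes 7.46% passed that test. The other 22 calls did not pass against that minimum.

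Other genes of the pathway were counted from lists of textbook members. Of all tested genes 54.6% were called, 27.1% higher and 27.5% lower, and the share called is given with each list. Among 9 tested JAK-coupled receptors outside the set, 4 were lower and 1 higher (55.6% called, near the share of all tested genes). Ifnar1, a chain of the type I interferon receptor, Ghr, the growth hormone receptor, and Crlf2, the TSLP receptor, were lower by log2 fold changes of -0.25, -0.24 and -0.27. Csf2rb, the common beta chain, was higher by 0.77, with 5.84 ± 0.427 CPM in FGFR2 KO libraries and 3.41 ± 0.494 CPM in control libraries (SD, n = 3 each; edgeR adjusted p = 3.14e-04). The related gene Csf2rb2 had 43 counts in FGFR2 KO libraries and 68 in control libraries and did not pass (log2 fold change -0.75, edgeR adjusted p = 0.0921). How reads that align to both were treated is not given. Among 8 other interleukin ligands (50% called), Il1a, Il1b and Il33 fell by 1.46, 2.36 and 0.52 on the log2 scale and Tslp rose by 0.84.

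Of 16 phosphatases, PIAS proteins and adaptors that act on JAK-STAT signalling, 5 were higher and 6 lower (68.8% called, against 54.6% of all tested genes). Ptpn11 (SHP2), which also couples growth factor receptors to ERK, rose by 0.33 on the log2 scale, with 278 ± 1.77 CPM in FGFR2 KO libraries and 220 ± 8.0 CPM in control libraries (SD, n = 3 each). Ptpn6 (SHP1), a phosphatase best known from blood cells, had a log2 fold change of -0.56, Sh2b1 of -0.26 and Cbl of 0.23. Without FGFR2 KO replicate 2 or without control replicate 1, only 3 of the list were lower. Of 12 adaptors of IL-1 and IL-17 receptors, 4 were lower and 1 was higher (41.7% called, a smaller share than of all tested genes). Among the lower ones were Sigirr, an inhibitory receptor of the family (-1.02), Irak2 (-0.64) and Tab3 (-0.18), and the higher one was Myd88 (0.40). Without control replicate 3, 2 were higher.

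Genes known as targets of the STATs were mixed. Of 16 tested STAT3 targets, 9 were lower and 5 higher, or 4 without Saa3, which passed the filter on low counts only through the FGFR2 KO libraries. Without Saa3 86.7% were called, against 54.6% of all tested genes. Saa3, an acute phase gene, stood at 24.9 ± 2.81 CPM in FGFR2 KO libraries, against 0.458 ± 0.288 CPM in control libraries, whereas Lcn2, another acute phase gene, fell to 17.4 ± 1.57 CPM in FGFR2 KO libraries, against 84.5 ± 2.64 CPM in control libraries (SD, n = 3 each). Ccnd1 and Pim3, which promote growth and survival, had log2 fold changes of -0.55 and -0.81. The list's median was -0.21.

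Of 9 tested STAT5 targets, 4 were lower and 2 higher. Among them Csn3, a milk casein, had 6 counts in FGFR2 KO libraries and 232 in control libraries, and the growth factor gene Igf1 had 41 counts in FGFR2 KO libraries and 0 in control libraries. Each passed the filter on low counts only through the group where it was high, and without them 3 of 7 were lower and 1 higher. That is 57.1% called, near the 54.6% of all tested genes. Pim1 had a log2 fold change of -0.39, and Gadd45g rose by 0.93, while the milk genes Csn2 and Wap were at 0 counts. Many of these genes answer to other pathways too, and no STAT activity was measured.

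**Figure D5:**
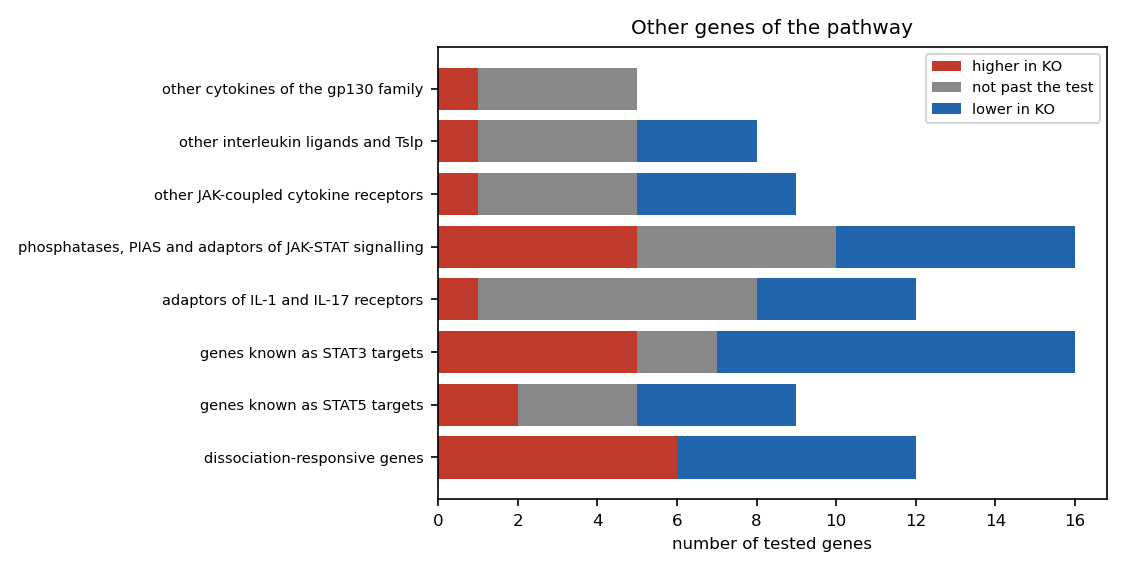
Number of tested genes in 8 lists of other pathway genes that were higher in KO (red), did not pass the test (grey) or were lower in KO (blue). Among STAT3 targets 5 are higher, with Saa3 among them, and 9 lower, and the dissociation list is even, with 6 and 6. The bars also hold Il6 (gp130 cytokines) and Igf1 and Csn3 (STAT5 targets). Like Saa3, these passed the filter on low counts only through the group where they were high, so their part of the bars is a description.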

How the data were processed

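The deposited values are raw counts of reads for each gene and library. FastQC 0.11.9, STAR 2.7.9a, featureCounts and R 4.1.1 were used, per the submitters' processing notes, and the builds hg38 and mm10 are named without a role. Not given in the sources used here were annotation release, strand setting and treatment of multi-mapping reads. Of the 31017 symbols, 98.2% occur in GENCODE M21 (mm10), which gave positions, exon lengths and overlaps. All columns were assigned by name, and replicate pairs differed by more than counting noise (chi-square per degree of freedom at least 2.28).

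The count model was fitted in edgeR 4.0.16 (R 4.3.3), with filterByExpr (minimum count 10, total 15), TMM scaling and the quasi-likelihood F-test, group as the only term, over 12158 genes. CPM use TMM-scaled totals. SE is the log2 fold change over the square root of F. In simulated counts for this comparison (12057 genes) 64% of genes seeded at 1.25-fold, 86% at 1.5-fold and 92% at 2-fold were recovered, and 6.08% of calls were false. Only 50 genes were seeded at each fold, a far smaller share of changed genes than the 54.6% called in the data. These rates therefore hold for the simulated counts and not for the calls reported here. Alternatives used other scalings and filters, DESeq2 1.42.0, limma 3.58.1 (voom), a minimum fold change of 1.5, a replicate block and each library left out.

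Genes named were all members of the set, with values per library where the call passed and the log2 fold change was at least 0.5 in size (and for called kinases, STATs and SOCS genes), and the 4 smallest adjusted p of each list. Other genes, such as Clcf1, Osm, Igf1, Il12b, Il17c, Csn2 and Insl3, were named after their values were seen. Members and lists were chosen with earlier results of these data known. The labels do not say that replicates are separate cultures, so the p-values reflect only how much these libraries vary, possibly for technical reasons. Some genes and lists that entered the counts are not reported here by name.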

Additional observations from a re-analysis of the deposited data

How the results depend on the processing

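Directions of all 31 called genes of the set were the same under every alternative that tested them. Their counts lay between 11 and 15 higher and between 15 and 17 lower, except against a minimum fold change of 1.5, with 5 higher and 4 lower (402 and 505 of all tested genes). The replicate numbers gave no sign of pairing (correlations of same-numbered libraries -0.03, -0.003 and -0.06), and with the replicate number as a block the set again had 14 higher and 17 lower and all tested genes 3206 and 3237. The median log2 fold change of the set ran from -0.0864 to 0.046 when single libraries were left out. Reversals touched only genes that had not passed: Il6ra (-0.00429 without FGFR2 KO replicate 1, -0.0063 without control replicate 2, up to 0.069), Il15 (0.046 without FGFR2 KO replicate 2, otherwise down to -0.238), Socs7 (-0.0013 without control replicate 2, up to 0.0804) and Stat5a (-0.0076 without FGFR2 KO replicate 3, -0.026 without control replicate 3, up to 0.0914).

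Against the minimum fold change of 1.5, the lists held 0 higher and 0 lower (other JAK-coupled receptors, and phosphatases, PIAS and adaptors), 0 and 1 (IL-1 and IL-17 adaptors), 1 and 2 (STAT3 targets), 1 and 1 (dissociation genes), and 1 lower STAT5 target. Saa3 (STAT3 targets), Csn3 and Igf1 (STAT5 targets) and Il6 (gp130 cytokines) passed the main filter on low counts only through the group where they were high. They were not taken out for the counts of this paragraph, so the counts of these 3 lists are a description. With a minimum mean of 5 CPM, 0 other gp130 cytokines, 0 other JAK-coupled receptors and 1 STAT5 target were higher. Higher gp130 cytokines numbered 2 with DESeq2 size factors, library totals alone or no filter, and 1 to 2 with single libraries left out; the cause was not tested. Leaving out single libraries gave 3 to 6 lower phosphatases, PIAS and adaptors and 1 to 2 higher adaptors of IL-1 and IL-17 receptors. Depth limits the genes below about 1 CPM (Lifr in control libraries, Il1rl1, Il3ra, Il2rb), where few counts stand behind each value.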

Other observations

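Ratios of levels per exon length were also taken within each library. Jak3 stood at 0.283 ± 0.0251 of the Jak1 level in FGFR2 KO libraries and at 0.851 ± 0.0304 of it in control libraries (SD, n = 3 each). Stat3 stood at 0.314 ± 0.0192 of Stat6 in FGFR2 KO libraries and at 0.192 ± 0.00451 in control libraries. Lif exceeded Lifr 46.2 ± 8.87-fold in FGFR2 KO libraries and 720 ± 95.2-fold in control libraries. Lifr stood at 0.0292 ± 0.00526 of Il6st in FGFR2 KO libraries and at 0.00679 ± 0.000868 in control libraries. For Osmr to Il6st the groups lay closer, at 0.101 ± 0.0124 in FGFR2 KO libraries and 0.0815 ± 0.00238 in control libraries. These ratios were chosen after the values of the genes were seen and carry no test.

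Several genes of the set lie close together in the genome, and neighbours did not always share a call. Stat2 and Il23a, 3.29 kb apart on chromosome 10, were both lower. Il12rb1 and Jak3 were both lower as well, but lie 855 kb apart on chromosome 8. Neighbours were taken among genes of the set alone, and 27.5% of all tested genes were lower. In the IL-1 receptor cluster of chromosome 1, Il18rap was lower, Il1r1 did not pass, Il1rl1 was tested only through the FGFR2 KO libraries, and Il1r2, Il1rl2 and Il18r1 were hardly detected. Il6st was higher, whereas its neighbour Il31ra, 9.81 kb away, had 4 counts over all libraries.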
